A study of Mus musculus with 6 samples.

Results

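Genes of chemokine receptors of the CXC and CX3C classes, namely Cxcr3, Cxcr4, Cxcr5, Cxcr6 and Cx3cr1, were followed in regulatory T cells (Tregs) and effector T cells (Teffs) sorted out of mouse skin. Members were the rows of the deposited table whose gene symbol equals 1 of these names, and all 5 were found among 15106 gene rows. The libraries comprise 4 of Tregs and 2 of Teffs, all from mice aged 6 weeks carrying a FOXP3-GFP reporter, in which green fluorescent protein marks cells that make FOXP3, the transcription factor that defines Tregs. Every library shares that reporter, and no other allele or treatment is named. The labels give neither the sorting gate of the Teffs nor whether libraries came from separate or pooled animals, so p-values cover the variation among these 6 libraries, which may be technical in part.

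Chemokine receptors are seven-helix membrane proteins that couple to inhibitory G proteins and steer leukocytes along gradients of secreted or surface-bound chemokines. CXCR3 binds the interferon-induced chemokines CXCL9, CXCL10 and CXCL11 and marks T cells of the type 1 programme. CXCR6 binds CXCL16, which epidermal and myeloid cells can carry on their surface, and is known from T cells that stay in tissues. CX3CR1 binds CX3CL1 and is known from monocytes, macrophages and cytotoxic lymphocytes, CXCR4 binds CXCL12 and is made by most leukocytes, and CXCR5 binds CXCL13 and leads B cells and follicular T cells into B cell follicles.

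Counts in genes ranged from 5582022 to 7046685 in Treg libraries and were 7468778 and 4902126 in Teff libraries. Levels are given as CPM, that is, counts per 1000000 counts in tested genes after TMM scaling. A floor of 3 counts, used where a library or group had none, corresponds to 0.397 to 0.581 CPM per library. Foxp3 separated the groups, with 103 to 233 CPM across Treg libraries, against 11.3 and 7.17 CPM across Teff libraries. The 5 T cell markers analysed summed to 3101 to 5705 CPM across Treg libraries, against 6360 and 6886 CPM for Teff 1 and Teff 2, and all 5 had counts in every library. Treg 3 stood apart in markers of other skin cells. Its 5 fibroblast markers summed to 1991 CPM, against 3.85 to 8.30 CPM in the other Treg libraries and 176 and 3.88 CPM in Teff 1 and Teff 2. Its 3 keratinocyte markers summed to 486 CPM, against at most 0.160 CPM in the other Treg libraries and 80.5 and 20.3 CPM in Teff 1 and Teff 2.

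Promoters of Cxcr6, Cxcr3, Cx3cr1 and Cxcr4 are shown to set those of the 3 receptors whose Treg libraries all lay below the Teff libraries beside that of Cxcr4, whose groups overlapped. The promoter of Cxcr5 is not shown. They are RefSeq sequences of GRCm38.p6 running from 250 bases before to 50 bases after the annotated start, on the strand of the gene. Capitals mark the core motif of RUNX factors, written TGTGGT or ACCACA on the other strand, a search chosen after the sequences had been read. The intervals are chr9:123806227-123806526 for Cxcr6 (plus strand), chrX:101734098-101734397 for Cxcr3, chr9:120068247-120068546 for Cx3cr1 and chr1:128592250-128592549 for Cxcr4 (all minus strand).

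Cxcr6 promoter: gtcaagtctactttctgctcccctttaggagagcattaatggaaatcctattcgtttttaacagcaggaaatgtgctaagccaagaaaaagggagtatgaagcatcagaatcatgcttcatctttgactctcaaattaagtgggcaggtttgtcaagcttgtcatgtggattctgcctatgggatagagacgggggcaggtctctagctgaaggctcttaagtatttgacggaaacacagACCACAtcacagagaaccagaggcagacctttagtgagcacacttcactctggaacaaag
Cxcr3 promoter: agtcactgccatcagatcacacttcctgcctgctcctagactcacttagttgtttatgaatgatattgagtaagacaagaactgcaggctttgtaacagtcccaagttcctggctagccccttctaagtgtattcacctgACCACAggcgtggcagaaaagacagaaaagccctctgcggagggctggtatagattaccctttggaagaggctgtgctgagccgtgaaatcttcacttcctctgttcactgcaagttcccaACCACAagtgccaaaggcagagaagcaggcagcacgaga
Cx3cr1 promoter: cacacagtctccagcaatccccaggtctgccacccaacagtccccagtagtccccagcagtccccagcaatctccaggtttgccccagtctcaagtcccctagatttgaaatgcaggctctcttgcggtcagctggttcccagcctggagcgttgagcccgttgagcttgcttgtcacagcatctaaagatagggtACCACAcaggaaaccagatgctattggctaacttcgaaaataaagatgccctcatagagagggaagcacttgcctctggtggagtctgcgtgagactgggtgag
Cxcr4 promoter: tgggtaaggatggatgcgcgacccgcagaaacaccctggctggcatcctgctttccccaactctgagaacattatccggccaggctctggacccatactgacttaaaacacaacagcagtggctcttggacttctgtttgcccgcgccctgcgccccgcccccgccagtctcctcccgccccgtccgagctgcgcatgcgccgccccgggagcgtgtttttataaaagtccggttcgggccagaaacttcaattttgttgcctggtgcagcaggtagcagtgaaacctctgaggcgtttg

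The RUNX core was found in the promoters of Cxcr6, Cxcr3 and Cx3cr1 and not in that of Cxcr4. It occurred once in Cxcr6, starting 10 bases before the annotated start, once in Cx3cr1, starting 54 bases before it, and in Cxcr3 both 110 bases before the start and at base 12 counted from the start as base 1. Of 32851 promoters of the same length, 16.8% hold the motif on either strand. The core of T-box factors such as T-bet, GGTGTGA or TCACACC on the other strand, can share letters with the RUNX core and was in none of the 4 windows. It is held by 3.98% of all promoters. The Cxcr4 promoter had 20 CpG dinucleotides, whereas those of Cxcr6, Cxcr3 and Cx3cr1 had 3, 4 and 5, and the median over all promoters was 7. These are matches of letters and not measured binding sites. The annotated span of Cx3cr1 given below reaches 120069879, beyond its window, so its motif position holds for the RefSeq start only.

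Cxcr6 was lower in Tregs than in Teffs, without passing the test over all genes. The gene lies on chromosome 9 from 123806475 to 123811760 (GRCm38, plus strand), and no exon of another annotated gene overlaps its exons, although its span lies within that of Fyco1 on the other strand. Its level was 1355, 544, 681 and 1006 CPM across Treg 1 to Treg 4, against 3543 and 3871 CPM for Teff 1 and Teff 2. Every Treg library lay below both Teff libraries, and Treg libraries differed more among themselves than Teff libraries did. Means were 897 ± 362 CPM for Tregs (SD, n = 4), against 3707 ± 232 CPM for Teffs (SD, n = 2). The log2 fold change, coded Treg minus Teff, was -2.05 ± 0.39 (SE), with an unadjusted p of 0.000834 and an adjusted p of 0.272 in edgeR's quasi-likelihood test.

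Cxcr3 showed a difference of nearly the same size in the same direction. It is annotated on chromosome X between 101731535 and 101734269 (minus strand), free of overlap with other annotated exons. Its level was 228, 119.5, 84.8 and 146 CPM across Treg 1 to Treg 4, against 703 and 604 CPM for Teff 1 and Teff 2. The highest Treg library, Treg 1, was still below the lower of both Teff libraries. Means were 145 ± 61.1 CPM for Tregs (SD, n = 4), against 654 ± 69.8 CPM for Teffs (SD, n = 2), with a log2 fold change of -2.18 ± 0.42 (SE), an unadjusted p of 0.000860 and an adjusted p of 0.272 (edgeR). Treg 1 was the highest Treg library for Cxcr6 as well. Without Treg 3, the library with high fibroblast and keratinocyte markers, the log2 fold change was -1.98 for Cxcr3 and -1.93 for Cxcr6.

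Cx3cr1 was detected in Teff libraries and had no counts in Treg libraries. It lies on chromosome 9 from 119901616 to 120069879 (minus strand), and exons of another annotated gene cover 1.73% of its exonic bases. There were 0 counts in each of the 4 Treg libraries, against 229 and 209 counts in Teff 1 and Teff 2. The Treg counts of 0 allow at most 0.428 to 0.541 CPM per library, whereas Teff levels were 30.3 CPM (exact 95% Poisson interval 26.5 to 34.5) and 40.5 CPM (35.2 to 46.4). Intervals and limits cover counting error only. Set against 3 counts over all Treg libraries, Cx3cr1 was at least 281-fold lower in Tregs, a bound from counting error alone. The edgeR test gave an unadjusted p of 0.00459 and an adjusted p of 0.572. Genes with counts numbered 9602, 9838, 12605 and 11074 in Treg 1 to Treg 4. Teff 1 and Teff 2 had 13197 and 11894. Cd8a, for example, had 0 counts in Treg 1 to Treg 3 and 302 in Treg 4. The bound leaves out such variation between libraries, so absence of Cx3cr1 from Tregs was not shown. In bulk libraries, fewer cells with a transcript and less transcript per cell cannot be told apart, which holds for each receptor here.

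**Figure D1:**
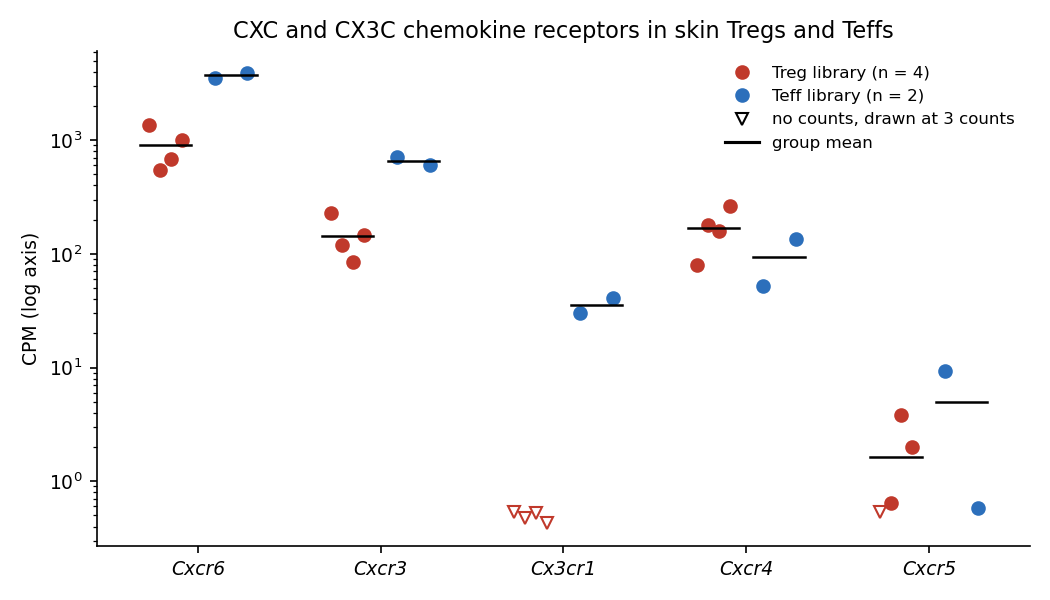
Level of each receptor in every library (CPM, log axis), with Treg libraries (n = 4) left of Teff libraries (n = 2), black lines at group means and open triangles at 3 counts where a library had none. Cxcr6, Cxcr3 and Cx3cr1 show no overlap between the groups, with Cxcr6 at 544 to 1355 CPM across Treg libraries, against 3543 to 3871 CPM across Teff libraries, while Cxcr4 and Cxcr5 overlap.

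Cxcr4 had the opposite order of means and overlapping groups. The gene lies on chromosome 1 from 128588199 to 128592293 (minus strand). Its level was 80.1, 178, 158 and 263 CPM across Treg 1 to Treg 4, against 51.6 and 135 CPM for Teff 1 and Teff 2. Teff 1 lay below all Treg libraries and Teff 2 within their range. Means were 170.0 ± 75.3 CPM for Tregs (SD, n = 4), against 93.3 ± 58.9 CPM for Teffs (SD, n = 2), and the log2 fold change of 0.87 ± 0.61 (SE) did not pass (edgeR unadjusted p = 0.194). It came to 0.32 without Teff 1, to 1.69 without Teff 2 and to 0.90 without Treg 3.

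Cxcr5 was near the limit of detection in most libraries. It lies on chromosome 9 from 44511787 to 44561877 (minus strand), and exons of Bcl9l on the other strand cover 3.30% of its exonic bases. Counts were 0, 4, 22 and 14 in Treg 1 to Treg 4 and 71 and 3 in Teff 1 and Teff 2, so both Teff libraries lay at the ends of the detected range. In CPM, Treg 3 had 3.86 (exact 95% Poisson interval 2.42 to 5.84), Teff 1 had 9.40 (7.34 to 11.9) and Teff 2 had 0.581 (0.120 to 1.70). The log2 fold change of -1.61 ± 2.17 (SE, edgeR unadjusted p = 0.480) turned to 1.43 without Teff 1 and was -2.46 without Treg 3. The 3 B cell markers analysed, genes that define the other main population with this receptor, summed to 3.68 to 40.9 CPM across Treg libraries, against 23.4 and 12.6 CPM for Teff 1 and Teff 2. Ms4a1 was highest in Teff 1 (9.002 CPM), the highest Cxcr5 library, whereas Cd79b was highest in Treg 4 (40.9 CPM) and Cd79a in Treg 2 (3.68 CPM). The part of B cells in the Cxcr5 counts was not tested.

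None of the 5 receptors passed an adjusted p of 0.05 in edgeR, where 5 of 11775 genes tested did (0.0425%), 4 higher (0.034%) and 1 lower (0.00849%) in Tregs. At an unadjusted p under 0.05, 3 members were lower in Tregs (Cxcr6, Cxcr3 and Cx3cr1) and 0 higher, against 4.73% of all genes, 2.31% lower and 2.42% higher. Groups did not overlap for the same 3 members, with all Treg libraries below both Teff libraries, an order found for 9.49% of genes tested. DESeq2 called these 3 lower in Tregs, with adjusted p of 0.00123 for Cxcr3, 0.000158 for Cxcr6 and 0.000959 for Cx3cr1, and called 1.55% of the same genes. In the authors' deposited table, 43 genes (0.285%) have a false discovery rate under 0.05. Cxcr3, Cx3cr1 and Cxcr6 stand at places 44, 45 and 46 of that table when ordered by the deposited p, with deposited false discovery rates of 0.0510, 0.0666 and 0.0666. The median log2 fold change of the 5 members was -2.05, against 0.07 over all genes tested.

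Ratios between receptors within a library do not depend on how libraries are scaled to each other. Treg 1 to Treg 4 held 16.9, 3.06, 4.30 and 3.82 counts of Cxcr6 per count of Cxcr4, and Teff 1 and Teff 2 held 68.6 and 28.7. The Treg ratios all lay below the Teff ratios, and Treg 1 came closest to them. The mean log2 ratio was 2.43 ± 1.12 (SD, n = 4) in Tregs and 5.47 ± 0.89 (SD, n = 2) in Teffs, a difference of -3.04. An exact two-sided permutation test gave p = 0.0667, the smallest that 15 arrangements of 4 and 2 libraries allow (0.1 after Benjamini-Hochberg adjustment over 3 ratios). The ratio of Cxcr3 to Cxcr4, added after the values were seen, was 2.85, 0.672, 0.535 and 0.553 in Treg 1 to Treg 4 and 13.6 and 4.48 in Teff 1 and Teff 2. It was lower in all Treg libraries, with a log2 difference of -3.17 and the same exact permutation p of 0.0667 (0.1 adjusted). Neither value allows for the choice of this ratio after its values were seen. The ratio of Cxcr6 to Cxcr3, added likewise, was 5.93, 4.55, 8.03 and 6.91 in Treg 1 to Treg 4 and 5.04 and 6.40 in Teff 1 and Teff 2. Here the groups overlapped, with a log2 difference of 0.13 (exact permutation p = 0.667) that lies within the SD of 0.35 between Treg libraries.

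The share of Cxcr4 in the family was higher in every Treg library than in both Teff libraries, a description with no test. Cxcr4 held 4.82% to 21.1% of the summed counts of the 5 receptors in Tregs and 1.19% and 2.90% in Teff 1 and Teff 2. Cxcr3 held 9.14% to 14.2% in Tregs and 16.2% and 12.996% in Teff 1 and Teff 2. The share of Cxcr6 was 64.6% to 81.5% in Tregs and 81.7% and 83.2% in Teff 1 and Teff 2, so Treg 1 came close to the Teff libraries in that share. These shares are of counts and not per length. Annotated exons of Cxcr3, Cxcr4 and Cxcr6 cover 1.73, 1.81 and 1.93 kb. The family sum was 842 to 1663 CPM across Treg libraries, against 4337 and 4651 CPM for Teff 1 and Teff 2.

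**Figure D2:**
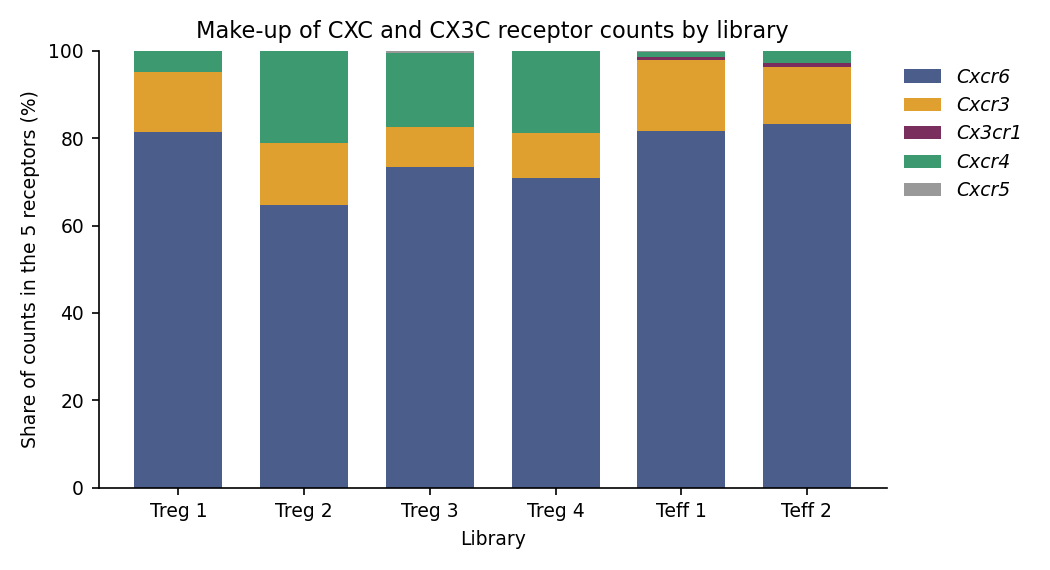
Share of each receptor in the summed counts of the 5 receptors (%), stacked for the 4 Treg libraries on the left and the 2 Teff libraries on the right. Cxcr4 takes 4.82% to 21.1% in Treg libraries and at most 2.90% in Teff libraries, and Cx3cr1 is seen in Teff libraries alone.

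Levels of different receptors were compared after division by annotated exon length, which was known for 14443 genes of the table (95.6%). On this scale Cxcr6 had 464 ± 187 CPM per kb in Tregs (SD, n = 4) and 1920 ± 120.2 CPM per kb in Teffs (SD, n = 2). Among all genes it stood between rank 29 and rank 102 in Treg libraries and at ranks 5 and 6 in Teff 1 and Teff 2. With the longest annotated transcript as the length, these ranks were 50 to 153 in Treg libraries and 9 and 11 in Teff 1 and Teff 2. Cxcr3 had 83.5 ± 35.3 CPM per kb in Tregs and 378 ± 40.3 CPM per kb in Teffs. Cxcr4 had 94.0 ± 41.6 CPM per kb in Tregs and 51.6 ± 32.6 CPM per kb in Teffs. Cxcr3 and Cxcr4 did not differ beyond their spread in Tregs, where Cxcr4 was higher in 3 of 4 libraries, while in both Teff libraries Cxcr3 was higher than Cxcr4. Cx3cr1 was at 7.86 ± 1.60 CPM per kb in Teffs, and Cxcr5 was at 0.487 ± 0.512 CPM per kb in Tregs and 1.498 ± 1.87 CPM per kb in Teffs.

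Among 19 chemokine receptor genes ranked per length, Cxcr6 held rank 1 in Treg 1, Treg 3 and both Teff libraries, and rank 2 in Treg 2 and Treg 4. The gene ahead of it in Treg 2 and Treg 4 was Ccr8, the receptor of CCL1 and CCL8 in mice. The groups overlapped for Ccr8, with 515 ± 198 CPM per kb in Tregs and 661 ± 216 CPM per kb in Teffs. Cxcr3 held ranks 5 to 7 in Treg libraries and rank 3 in both Teff libraries. Cxcr4 held ranks 4 to 9 in Treg libraries and ranks 7 and 4 in Teff 1 and Teff 2. The order depends on the length used. With the longest annotated transcript, Cxcr6 kept rank 1 in Treg 1 and both Teff libraries but held ranks 3, 2 and 3 in Treg 2, Treg 3 and Treg 4. Ccr6 was then above it in these 3 libraries, for example at 402 CPM per kb in Treg 3, where Cxcr6 was at 357 CPM per kb.

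**Figure D3:**
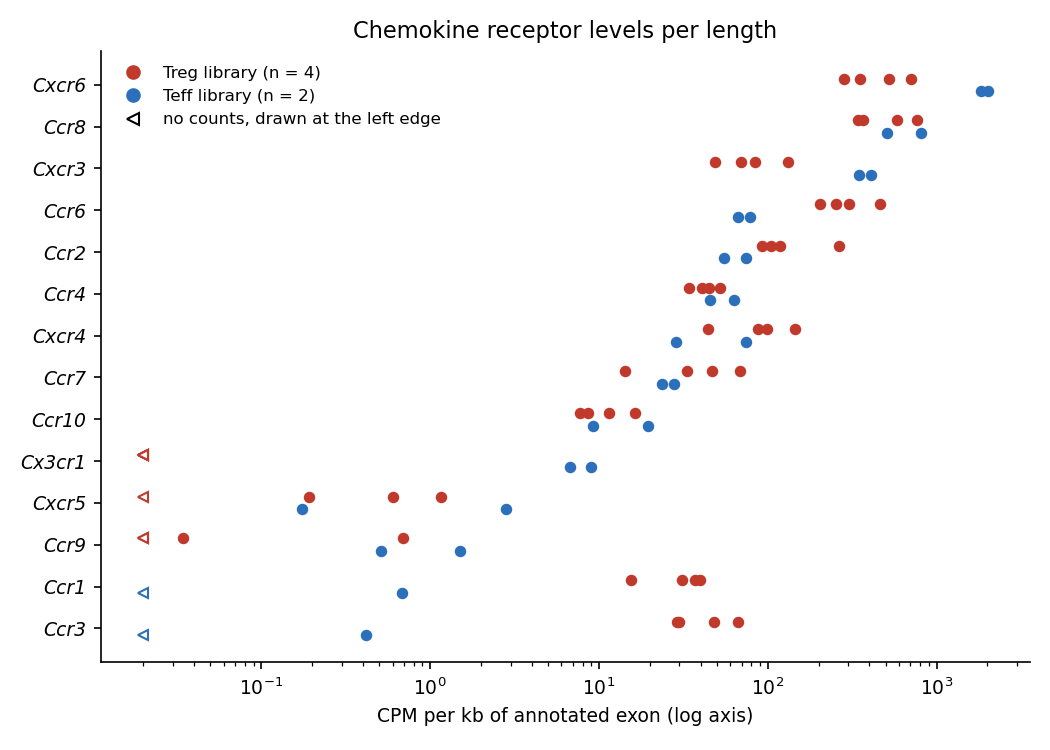
Level per kb of annotated exon (CPM per kb, log axis) of the 5 receptors and 9 CC chemokine receptors in each library, Treg libraries (n = 4) drawn above Teff libraries (n = 2), ordered by the Teff mean. Cxcr6 averages 464 CPM per kb in Tregs and 1920 CPM per kb in Teffs, and Cx3cr1 has no Treg point above 0, drawn at the left edge.

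The CC chemokine receptors, which bind the other large class of chemokines, had the other balance among genes whose groups did not overlap. None of the 9 analysed was called in edgeR. At an unadjusted p under 0.05, 3 were higher and 0 lower in Tregs (2.42% and 2.31% of all genes). The 4 Treg libraries exceeded both Teff libraries for 4 of them and were below both for 0, orders found for 5.51% and 9.49% of all genes. DESeq2 called 3 higher and 0 lower, where it called 1.19% of all genes higher and 0.365% lower. The median log2 fold change was 0.66, with 5 positive and 4 negative values. Ccr6, which binds CCL20, was at 711 ± 259 CPM across Treg libraries, against 168 ± 20.3 CPM across Teff libraries (log2 fold change 2.08 ± 0.44, edgeR adjusted p = 0.321). Ccr3, the eotaxin receptor, was at 95.2 to 217 CPM across Treg libraries, against 0 and 1.36 CPM for Teff 1 and Teff 2. Ccr1, which binds CCL3 and CCL5, was at 43.8 to 113 CPM across Treg libraries, against 0 and 1.94 CPM for Teff 1 and Teff 2. Ccr2, which binds CCL2, was at 978 ± 545 CPM across Treg libraries, against 439 ± 93.4 CPM across Teff libraries (log2 fold change 1.16 ± 0.51, edgeR unadjusted p = 0.0533), and Treg 1 was far above the other Treg libraries at 1788 CPM. A difference between both receptor lists was not tested.

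Several CC receptor genes lie beside Cxcr6. Of 20 protein-coding genes analysed that reach within 700 kb of it on chromosome 9, Cxcr6 included, 14 were tested, and 0 were called in edgeR. The 4 Treg libraries exceeded both Teff libraries for 4 of them, namely Sacm1l, Ccr1, Ccr3 and Ccr2 (5.51% of all genes), and were below both for Cxcr6 and Zdhhc3 (9.49% of all genes). Xcr1, the XCL1 receptor, lies 45.8 kb from the start of Cxcr6 and was at 6.31 to 60.2 CPM across Treg libraries, against 29.4 and 30.2 CPM for Teff 1 and Teff 2, a log2 fold change of -0.07 ± 1.10. Fyco1, whose span holds Cxcr6, was at 166 ± 102 CPM across Treg libraries, against 176 ± 14.2 CPM across Teff libraries, a log2 fold change of -0.09 ± 0.55. No source used here gives the strand setting of the counting.

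**Figure D4:**
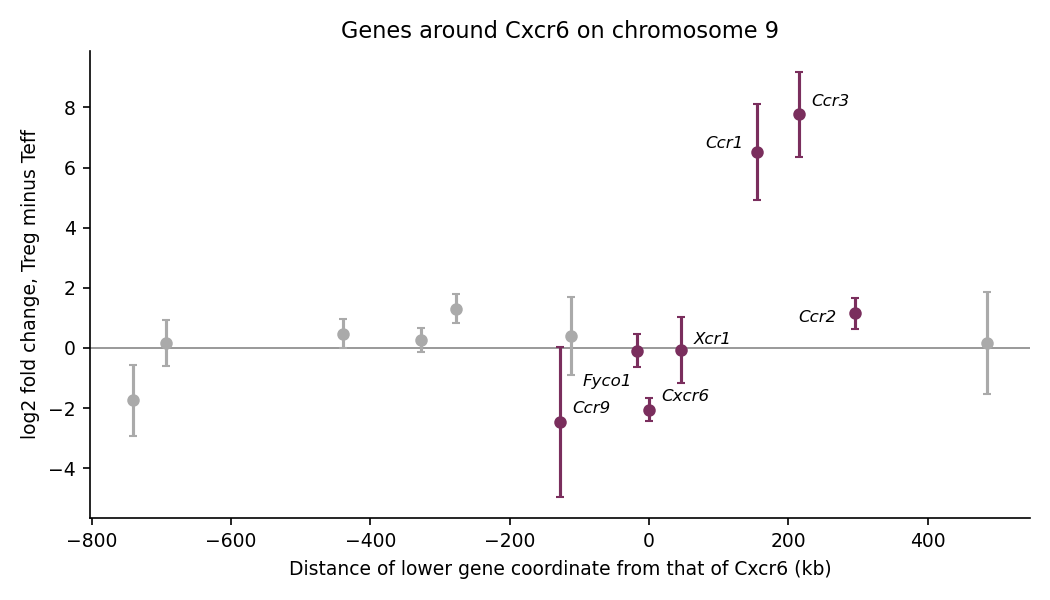
Log2 fold change, Treg minus Teff, with its SE for the 14 genes tested that reach within 700 kb of Cxcr6, against the distance of each gene's lower coordinate from that of Cxcr6 (kb). Cxcr6 lies at -2.05, while Ccr1 and Ccr3, at 156 and 215 kb, lie at 6.52 and 7.77, fitted values that rest on counts in a single Teff library.

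Other CXC, XC and atypical chemokine receptors held 1 gene whose groups did not overlap, with all Treg libraries above both Teff libraries (5.51% of all genes). Of the 4 tested, 0 were called in edgeR, and 1 was higher in Tregs at an unadjusted p under 0.05 (2.42% of all genes), Ccrl2, which binds the chemoattractant chemerin without known signalling. Ccrl2 was at 167 ± 74.6 CPM across Treg libraries, against 26.6 ± 18.0 CPM across Teff libraries (log2 fold change 2.65 ± 0.68, edgeR adjusted p = 0.572). DESeq2 called it higher, as it did 1.19% of all genes. Ackr3, an atypical receptor that shares CXCL12 with Cxcr4, had 1 count in Treg 3 and 2 counts in Teff 1. Cxcr1 and Cxcr2, receptors of neutrophils, were not analysed here.

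Ligands of the 5 receptors were low or uneven. None of the 4 tested was called in edgeR or DESeq2, 0 had an unadjusted p under 0.05, and no ligand separated the groups. Cxcl10, a Cxcr3 ligand, was at 52.7, 4.80, 94.3 and 207 CPM across Treg 1 to Treg 4, against 16.7 and 26.7 CPM for Teff 1 and Teff 2. Cxcl16, the Cxcr6 ligand, was at 0.175 to 24.0 CPM across Treg libraries, against 5.16 and 5.81 CPM across Teff libraries. Cxcl12, the Cxcr4 ligand and a product of fibroblasts, was at 57.5 CPM in Treg 3, the library with the highest fibroblast marker sum, and at most 0.397 CPM in any other library. Cx3cl1 had 23 and 26 counts in Treg 1 and Treg 3 and 0 in every other library, Teffs included. Cxcl9 was at no more than 2.85 CPM in any Treg library against 2.65 and 0 CPM for Teff 1 and Teff 2, and Cxcl13 was not analysed here.

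Genes that couple these receptors to G proteins or switch them off were also examined. Of 11 tested, 0 were called in edgeR or DESeq2 and 0 had an unadjusted p under 0.05, and the groups did not overlap for 1, against 15% of all genes. That gene was Arrb1, which encodes an arrestin that uncouples and internalises receptors, at 75.8 ± 16.3 CPM across Treg libraries, against 30.4 ± 2.44 CPM across Teff libraries (log2 fold change 1.32 ± 0.62, edgeR unadjusted p = 0.0662). Of 14 genes of migration signalling below the receptors, 0 were called in edgeR or DESeq2 and 0 had an unadjusted p under 0.05, with a median log2 fold change of -0.45. All Treg libraries lay below both Teff libraries for Coro1a, Was and Tln1 (9.49% of all genes) and above them for Rasgrp2 (5.51% of all genes). Coro1a, an actin regulator that T cells need to migrate, was at 2441 ± 420.2 CPM across Treg libraries, against 3878 ± 100.5 CPM across Teff libraries (log2 fold change -0.67 ± 0.29). Was, the Wiskott-Aldrich actin nucleation factor, was at 23.0 ± 11.3 CPM across Treg libraries, against 60.4 ± 9.41 CPM across Teff libraries. Tln1, the integrin activator talin, was at 476 ± 87.9 CPM across Treg libraries, against 667 ± 12.01 CPM across Teff libraries. Rasgrp2, an activator of the GTPase RAP1, was at 27.7 ± 9.69 CPM across Treg libraries, against 13.9 ± 4.15 CPM across Teff libraries.

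Transcription factors of the T cell programmes that carry these receptors had values in both directions. Of 12 tested, 0 were called in edgeR, 2 were higher and 1 lower in Tregs at an unadjusted p under 0.05 (2.42% and 2.31% of all genes), and DESeq2 called 1 higher (1.19% of all genes). Tbx21, which encodes T-bet, an activator of Cxcr3, was at 28.5, 18.7, 2.45 and 11.4 CPM across Treg 1 to Treg 4, against 51.5 and 103 CPM for Teff 1 and Teff 2. No Treg library reached the level of a Teff library, while the log2 fold change of -2.33 ± 1.02 had an unadjusted p of 0.0523 in edgeR. Id2, an inhibitor of E proteins found in effector and resident lymphocytes, was at 974 ± 281 CPM across Treg libraries, against 1940.3 ± 21.5 CPM across Teff libraries (log2 fold change -0.99 ± 0.33). Maf, a factor of follicular, type 17 and regulatory cells, was at 738 ± 310.2 CPM across Treg libraries, against 219 ± 119.6 CPM across Teff libraries (log2 fold change 1.75 ± 0.53, adjusted p = 0.721), and Prdm1, which encodes Blimp-1, at 261 ± 176 CPM across Treg libraries, against 82.4 ± 28.2 CPM across Teff libraries. Bcl6, the factor of follicular T cells, which carry Cxcr5, was at 34.3 ± 14.4 CPM across Treg libraries, against 34.0 ± 0.95 CPM across Teff libraries. Runx3, chosen after its values were seen because the printed promoters hold the RUNX core, overlapped between groups at 156 ± 92.7 CPM across Treg libraries, against 228 ± 74.1 CPM across Teff libraries.

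Genes seen on the T cell subsets that carry these receptors were also examined. Of the 8 tested, 0 were called in edgeR, and 2 were higher and 3 lower in Tregs at an unadjusted p under 0.05 (2.42% and 2.31% of all genes). DESeq2 called 1 higher and 2 lower (1.19% and 0.365% of all genes). Nkg7, found in granules of cytotoxic cells, had a log2 fold change of -3.03 ± 0.40 (adjusted p = 0.0890), and Ifng, the type 1 cytokine, of -3.40 ± 0.67 (adjusted p = 0.283), where a gene on the same strand overlaps 25.9% of its exonic bases. Ccl5, a chemokine of cytotoxic and memory T cells, was at 66.4 ± 39.5 CPM across Treg libraries, against 217 ± 25.2 CPM across Teff libraries. Icos, a co-stimulatory receptor of follicular and regulatory T cells, was at 4066 ± 1050 CPM across Treg libraries, against 1903 ± 211 CPM across Teff libraries, also with no overlap. These lists were chosen with results of these data known and give no independent support to each other.

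Sums of CD8 T cell, gamma-delta T cell and endothelial markers were lower in every Treg library, as Cxcr6, Cxcr3 and Cx3cr1 were. Natural killer cell and macrophage or monocyte sums overlapped, and the Langerhans or dendritic cell sum was higher in every Treg library. Among all genes tested, 9.49% lay below both Teff libraries in all Treg libraries. Both CD8 T cell markers were lower, with sums of 0.1804 to 65.6 CPM across Treg libraries, against 142 and 93.6 CPM for Teff 1 and Teff 2. Cd8a was at 0 in 3 of 4 Treg libraries. The gamma-delta T cell markers analysed, Cd163l1 and Sox13, were at 0 in all Treg libraries and summed to 15.5 and 14.9 CPM in Teff 1 and Teff 2. Sox13 had 55 counts in Teff 1 and 0 in Teff 2, so the Teff 2 sum was Cd163l1 alone. Of both natural killer cell markers analysed, Ncr1 was at 0 in all Treg libraries and in Teff 1, and the sum was 0 to 24.0 CPM across Treg libraries, against 1.59 and 8.72 CPM for Teff 1 and Teff 2. The sum of the 2 endothelial markers analysed was 16.1 to 66.1 CPM across Treg libraries, against 84.99 and 121 CPM for Teff 1 and Teff 2, mostly Pecam1, which was lower in every Treg library, while Cdh5 overlapped between the groups. The sum of the 5 Langerhans or dendritic cell markers was 41.0 to 168 CPM across Treg libraries, against 35.9 and 32.8 CPM for Teff 1 and Teff 2. Of these 5, Epcam alone separated the groups, and 3 had positive and 2 negative log2 fold changes. The 8 macrophage or monocyte markers summed to 166 to 587 CPM in Tregs and to 295 and 246 CPM in Teff 1 and Teff 2. Lyz2 alone was at 464 CPM in Treg 4. Cd68 was lower in every Treg library, at 0 to 19.5 CPM, than in Teff 1 and Teff 2, at 44.2 and 36.2 CPM, and the other 7 markers overlapped between the groups. The part of all these cells in the receptor counts was not tested. Set against the summed counts of the T cell markers of the same library, Cxcr6 came to 11.4% to 29.8% in Tregs and 55.7% and 56.2% in Teff 1 and Teff 2, and Cxcr3 to 2.51% to 5.02% in Tregs and 11.1% and 8.78% in Teff 1 and Teff 2, so that groups stayed apart on this scale.

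The genes most like Cxcr3, Cxcr4, Cxcr5 and Cxcr6 were named by Pearson correlation of log2 CPM over the 6 libraries, among 5753 or 5754 genes at or above the median level, as a description. None were named for Cx3cr1, which had counts in 2 libraries only. For Cxcr3 they were Cd97 (r = 0.986), an adhesion receptor of leukocytes, Arfgap1 (r = 0.982), which acts on Golgi traffic, and Cxcr6 itself (r = 0.972). For Cxcr6 they were Lpcat3 (r = 0.992), a phospholipid-remodelling enzyme, Cd97 (r = 0.990) and Parvg (r = 0.986), an adaptor of integrin adhesions in leukocytes. Libraries form 2 groups in these genes, so the values reflect the gap between groups as well as the order within them. Cd97 was at 355, 267, 260.2 and 323 CPM across Treg 1 to Treg 4, against 625 and 648 CPM for Teff 1 and Teff 2. For Cxcr4 the genes were Tsix (r = 0.987), an antisense RNA whose counts cannot be told apart from those of its partner without strand, Map2k3 (r = 0.966) and Srrm2 (r = 0.962). For Cxcr5 they were Scfd1 (r = 0.990), Sec61a1 (r = 0.957) and Mrpl20 (r = 0.950), over counts that were under 10 in 3 libraries. With so many genes searched over 6 libraries, high r values can arise by chance, and their size was not tested. Between Cxcr4 and the other receptors r was -0.671 with Cxcr3 and -0.610 with Cxcr6.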

How the data were processed

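Per the labels' protocols, column-purified RNA of sorted cells went into SMARTer low-input cDNA libraries. Build mm10, HTSeq 0.6.1, TopHat2 2.0.12, SAMtools 0.1.19.0, CASAVA 1.8.2 and Bowtie2 2.1.0.0 are listed, per the submitters' processing notes, with no roles. No source used here gives the annotation, the strand setting or the authors' test. Raw counts per gene were deposited for 6 libraries, beside a log2 fold change and mean log2 CPM, a p-value and a false discovery rate from the authors' own comparison, per the file headers. The 3 counter rows, 88.0% to 90.2% of column totals, were left out.

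Genes passing filterByExpr (smallest count 10) were tested in R 4.3.3 with edgeR 4.0.16 (limma 3.58.1) by the quasi-likelihood F test on group alone after TMM scaling (factors 0.913 to 1.05), with Benjamini-Hochberg adjustment over all 11775 genes and a threshold of 0.05. CPM uses the same scaling. The SE of an edgeR log2 fold change was not fitted but derived, as its absolute value divided by the square root of the F statistic. The steps were tested on simulated data. DESeq2 1.42.0 was an alternative, besides other scalings and filters, each library left out, and a replicate block. Genes to name were the 5 members, fixed ligands, receptors and factors, and up to 4 members per context list (groups apart, smallest p). The resident genes Itgae, Cd69 and Itga1 were named besides. Members and lists were chosen with earlier results of these data known. Positions and exon lengths are from GENCODE M21 (GRCm38). Results for some genes are not reported here.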

Additional observations from a re-analysis of the deposited data

Results flagged for a closer look

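Among 37 sets of 4 Treg values checked for a sample far from the others, 5 were flagged. The cut is set to flag about 1 in 20 sets of normally distributed values, a rate that need not hold for CPM. A checked gene with counts in 1 Treg library only, such as Ackr3, is always flagged. The log2 ratio of Cxcr3 to Cxcr4 counts was 1.51 in Treg 1, against -0.90 to -0.57 in the other Treg libraries. Cxcl12 was at 57.5 CPM in Treg 3, against 0 to 0.160 CPM in the other Treg libraries. Treg 3 also had the highest fibroblast marker sum, 1991 CPM. Ackr3 was at 0.175 CPM in Treg 3, which is 1 count, and at 0 in the other Treg libraries. Id2 was at 1392 CPM in Treg 4, against 783 to 884 CPM in the other Treg libraries, and still below both Teff libraries. Ccr2 was at 1788 CPM in Treg 1, against 621 to 798 CPM in the other Treg libraries.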

How the results depend on the processing

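The number of genes called was 5 in edgeR, 183 with DESeq2's Wald test, 19 with no filter on low counts, 15 with the replicate block and 0 to 2 with single libraries left out. DESeq2 called 3 of the 5 receptors, all lower in Tregs, at log2 fold changes of -2.15 (Cxcr3), -2.02 (Cxcr6) and -10.2 (Cx3cr1, a fitted value and no bound). The number of receptors called was 0 under every other alternative run. The replicate block used the numbers in the titles, shared by the groups for 1 and 2 only. The labels do not say that these numbers mark a shared animal or day, and deviations of same-numbered libraries correlated at -0.0417 and 0.155. The block gave log2 fold changes of -1.98 (Cxcr3), -2.11 (Cxcr6), 0.52 (Cxcr4), -3.39 (Cxcr5) and -10.8 (Cx3cr1), with no receptor called, and reversed the Cxcr6 to Cxcr3 log2 ratio difference to -0.13. Across libraries left out in turn, log2 fold changes ran from -2.49 to -1.98 (Cxcr3), -2.32 to -1.87 (Cxcr6), -10.9 to -10.6 (Cx3cr1), 0.32 to 1.69 (Cxcr4) and -2.57 to 1.43 (Cxcr5). Adjusted p ran from 0.228 to 0.9999 over Cxcr3 and Cxcr6. The Cxcr6 to Cxcr4 difference ran from -3.67 to -2.41, that of Cxcr3 to Cxcr4 from -3.97 to -2.37, and that of Cxcr6 to Cxcr3 from -0.04 to 0.30. With 1 Teff library left out, the lone one is assumed to vary like the Tregs. Cxcr5 reversed to 1.43 without Teff 1, and the Cxcr6 to Cxcr3 difference to -0.0416. The cause was not tested. Upper-quartile scaling shifted the median log2 fold change of all genes by -0.11, and no receptor changed direction under another scaling. Cxcr5 did not reach a mean CPM of 10 and has no value under that filter. With the longest transcript as the length, 6 ranks of Cxcr6, Cxcr3 and Cxcr4 among receptors changed. Counts of Cxcr5, at most 71 in any library, set the width of its intervals.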
